A study of Mus musculus with 12 samples.

Results

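A set of 10 genes that mark hepatic stellate cells and the myofibroblasts they can become was read in total RNA sequencing of 12 mouse livers: Acta2, Tagln, Des and Vim of the contractile and filament apparatus, Rgs5 of pericytes, the growth factor receptors Pdgfra and Pdgfrb, the retinoid enzyme Lrat, and the secreted proteins Reln and Hgf. These members were chosen by symbol and matched to 10 of the 40551 Ensembl genes counted in each library. All 10 were among the 15070 genes kept by the filter on low counts, with 42 to 9426 counts per library.

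The labels give 4 genotypes with 3 libraries each, called livers here. WT livers carried neither deletion. Mcl1 KO livers, called Mcl1Δhep in the study, came from mice with an albumin-promoter Cre and floxed Mcl1, which encodes a prosurvival protein of the Bcl-2 family. The albumin promoter acts in hepatocytes, so stellate cells, endothelial cells and leukocytes of these livers were not the target of the deletion. Sting1 KO livers came from mice that lack Sting1, the adaptor of cytosolic DNA sensing, in all cells, and Mcl1 Sting1 DKO livers came from crosses of both lines. WT and Mcl1 KO livers were sequenced at an age of 2 months, and animals of both sexes were used. The labels give no strain, nor the age or sex behind a single library. The RNA came from pieces of whole liver, so more cells of a type and more RNA per cell cannot be told apart for any gene below.

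Stellate cells lie between the hepatocytes and the endothelium of the sinusoid, where they store vitamin A as retinyl esters and act as pericytes. After liver injury they can lose this store and take on a myofibroblast state, with smooth muscle actin fibres, contraction and deposition of collagen. Platelet-derived growth factor, read by Pdgfra and Pdgfrb, is a strong mitogen for these cells, and transforming growth factor beta drives their matrix genes.

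The targeted genes were read first. Mcl1 stood at 90.2, 102 and 104 CPM (a gene's counts relative to its library's total on a fixed scale, adjusted by trimmed mean of M values, TMM) in WT livers and at 27.9, 34.0 and 25.0 CPM in Mcl1 KO livers, with 18.1, 22.9 and 26.0 CPM in Mcl1 Sting1 DKO and 78.3, 90.1 and 77.0 CPM in Sting1 KO livers. Sting1 stood at 2.53, 2.43 and 2.11 CPM in WT, at 4.59, 5.997 and 3.67 CPM in Mcl1 KO, at 1.90, 2.53 and 2.33 CPM in Mcl1 Sting1 DKO and at 1.16, 1.72 and 2.70 CPM in Sting1 KO livers. The Mcl1 counts separated the genotypes as labelled, whereas the Sting1 counts of the libraries labelled Sting1 KO overlapped those of WT, so groups with Sting1 in their name are groups by label here. The study checked its Sting1-deficient mice for the protein by Western blotting. It also reported that their splenocytes failed to phosphorylate the transcription factor IRF3 when given a STING agonist. Whether the allele of these mice leaves a transcript is not given in the sources used here.

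Some libraries stood apart in ways that touch these genes. The sum of 15 skeletal muscle markers was 1824 TPM (counts per length, scaled to the same sum in every library) in Mcl1 KO replicate 3 and 1.44 to 10.99 TPM in the other 11 livers. Small structured RNA genes took 0.172% to 0.369% of counts in WT, 0.283% to 2.37% in Mcl1 KO, 0.431% to 0.532% in Mcl1 Sting1 DKO and 0.506% to 0.897% in Sting1 KO livers. Genes of the Y chromosome summed to 142 to 147 CPM in WT replicates 2 and 3 and Mcl1 Sting1 DKO replicate 1, and to at most 0.201 CPM in the other 9 livers, among them all Mcl1 KO livers. WT replicate 1, the WT liver without Y-linked counts, was the highest of the 3 WT livers for all 10 members. Library totals ran from 28826367 to 45266387 counts.

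**Figure D1:**
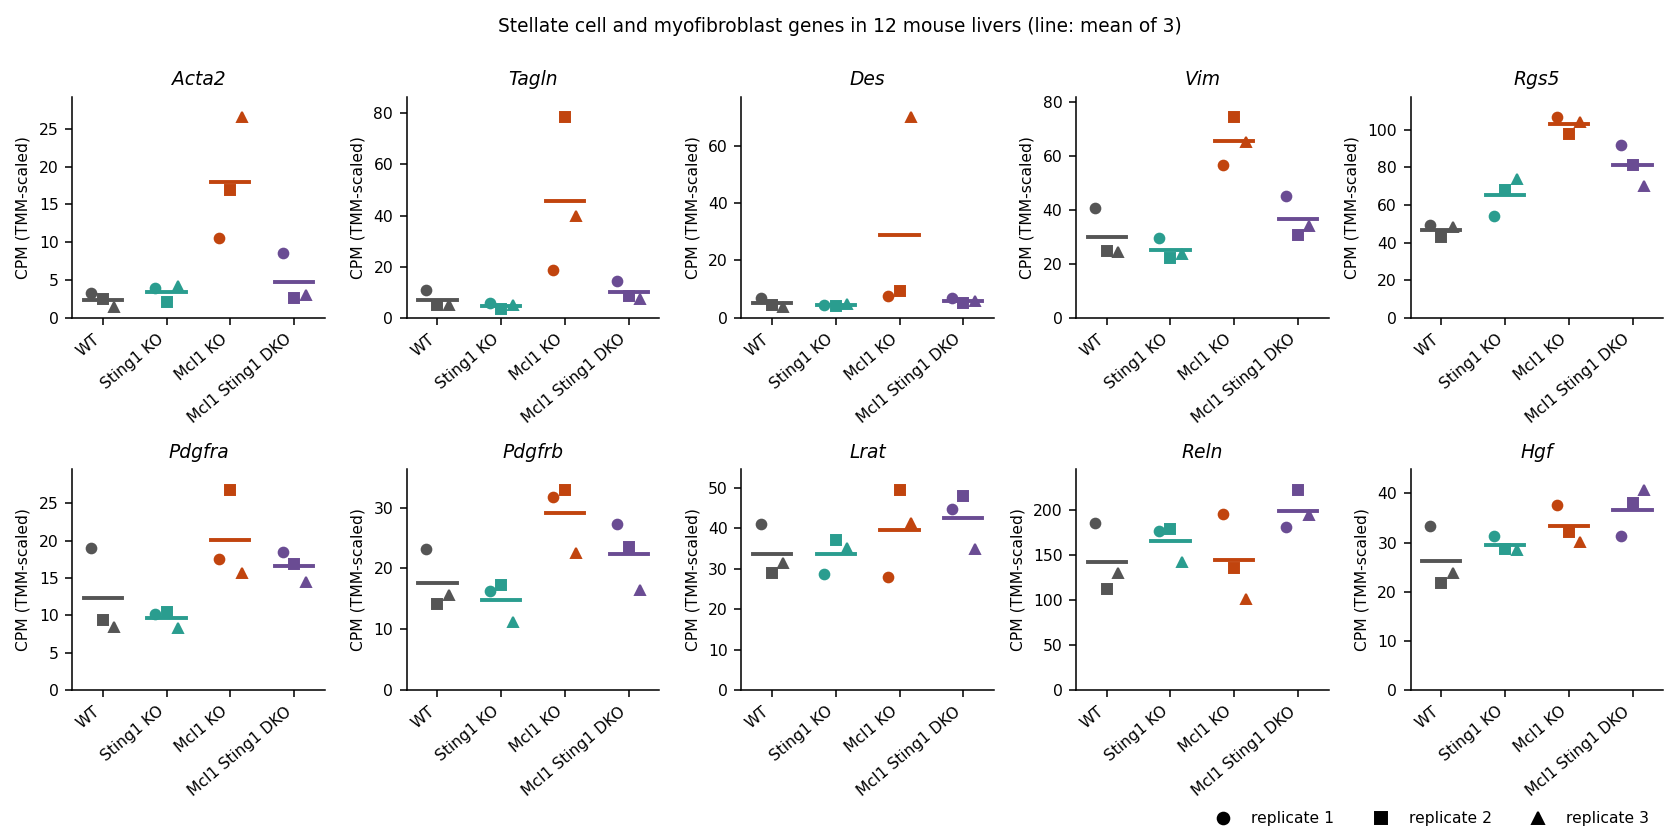
Level of each of the 10 members in each liver, as TMM-scaled CPM on linear axes that start at 0; symbols are replicates 1, 2 and 3 and the line is the mean of 3 livers. Acta2, Tagln, Des, Vim and Rgs5 have all 3 Mcl1 KO livers above all 3 WT livers, and the Des mean of Mcl1 KO rests on replicate 3 at 69.9 CPM.

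Per length, Rgs5 had the highest mean level of the members in WT livers, 27.4 ± 3.03 TPM (SD, n = 3, as for all means below), followed by Vim at 22.97 ± 8.34, Lrat at 22.7 ± 5.53 and Reln at 21.7 ± 6.92 TPM; neighbours among these 4 differed by less than the larger SD of each pair. Tagln at 12.3 ± 6.76, Hgf at 8.94 ± 2.56 and Pdgfrb at 7.88 ± 2.58 TPM came next, with neighbours again apart by less than the larger SD of the pair. Pdgfra at 3.65 ± 1.92, Des at 3.55 ± 1.27 and Acta2 at 2.64 ± 1.14 TPM were the lowest. In Mcl1 KO livers the order was Tagln at 72.5 ± 41.1, Rgs5 at 58.2 ± 12.1, Vim at 47.1 ± 2.97, Lrat at 24.8 ± 3.38, Reln at 21.7 ± 10.8, Acta2 at 18.6 ± 6.69, Des at 18.4 ± 21.6, Pdgfrb at 12.5 ± 3.71, Hgf at 10.97 ± 3.17 and Pdgfra at 5.55 ± 1.34 TPM. Acta2, the lowest member in WT livers, ranked above both receptors and Hgf in Mcl1 KO livers. Lengths were those of all annotated exons of a gene together, which can exceed the length of its transcripts. The order between members depends on that choice.

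The first comparison, Mcl1 KO against WT, addresses what deletion of Mcl1 in hepatocytes goes along with in these other cells' genes. Of the 10 members 5 rose: Acta2, Tagln, Des, Rgs5 and Vim; no member fell. Over all genes tested, 20.2% were called by edgeR's quasi-likelihood test at an adjusted p under 0.05, 10.8% as higher and 9.43% as lower. The median log2 change of the members was 0.92, against -0.0049 over all genes tested, and all 10 log2 changes were above 0. The 5 called members were also those with no overlap between the 3 Mcl1 KO and the 3 WT livers, an arrangement found in the higher direction for 16.2% of all genes tested. DESeq2 called 6 members as higher, with 13.6% of all genes. With Y-linked expression as covariate edgeR called 4 members and 1504 of the 15070 genes tested. These members were Acta2 at 3.16 (adjusted p 0.00918), Tagln at 2.65 (adjusted p 0.0189), Rgs5 at 1.19 (adjusted p 0.00735) and Vim at 1.05 (adjusted p 0.031).

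Acta2, smooth muscle alpha-actin and the usual marker of activated stellate cells (ENSMUSG00000035783, GRCm39 chr19:34217737-34232990, minus strand), read 3.22, 2.43 and 1.39 CPM in WT livers and 10.6, 16.9 and 26.5 CPM in Mcl1 KO livers. All 3 Mcl1 KO livers lay above all 3 WT livers. The log2 change was 2.90 (SE 0.51, 95% interval 1.79 to 4.02), a 7.48-fold difference with an edgeR adjusted p of 0.00443. In absolute terms Acta2 was still a minor transcript of the Mcl1 KO livers, at 18.01 ± 8.04 CPM.

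Tagln, transgelin, an actin-binding protein of contractile cells (ENSMUSG00000032085, chr9:45840909-45847404, minus strand), read 10.8, 4.95 and 4.89 CPM in WT and 18.6, 78.5 and 39.8 CPM in Mcl1 KO livers. The 3 Mcl1 KO livers differed 4.21-fold among themselves, and the liver highest for Tagln, replicate 2, was not the liver highest for Acta2, replicate 3. The log2 change was 2.71 (SE 0.50, 95% interval 1.63 to 3.80; adjusted p 0.0052, edgeR). With an SD of 30.4 CPM around a mean of 45.6 CPM, the size of the Tagln change is known less well than its direction.

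Des, desmin, the intermediate filament of muscle and of rodent stellate cells (ENSMUSG00000026208, chr1:75320511-75345223, plus strand), read 6.78, 4.45 and 3.86 CPM in WT and 7.61, 9.45 and 69.9 CPM in Mcl1 KO livers. The groups did not overlap, but replicates 1 and 2 of Mcl1 KO were close to the highest WT liver and replicate 3 was far above all others. The log2 change was 2.51 (SE 0.68, 95% interval 1.03 to 3.99; adjusted p 0.0251, edgeR). Without Mcl1 KO replicate 3 it was 0.75 with an adjusted p of 0.0588, and the call was also lost without WT replicate 2 (2.42, adjusted p 0.0875) and without WT replicate 3 (2.35, adjusted p 0.0859). Over all 23 alternative fits the adjusted p of Des ran from 0.00472 to 0.551.

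That liver was the one with skeletal muscle transcripts. Acta1, the actin of skeletal muscle, averaged 185 ± 320 CPM in Mcl1 KO livers and 0.616 ± 0.983 CPM in WT livers. The 3 genes whose log2 CPM followed Des most closely over the 12 livers were Slc25a4 (r = 0.99), a mitochondrial ADP/ATP carrier of muscle, Spink1 (r = 0.98), a secreted trypsin inhibitor, and Flnc (r = 0.98), the filamin of striated muscle. Acta2 and Tagln were called without this liver too, at log2 changes of 2.51 (adjusted p 0.0096) and 2.80 (adjusted p 0.00776), as were Rgs5 at 1.12 (adjusted p 0.00259) and Vim at 1.12 (adjusted p 0.0143). The part of muscle tissue in the Des value of replicate 3 was not tested.

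**Figure D2:**
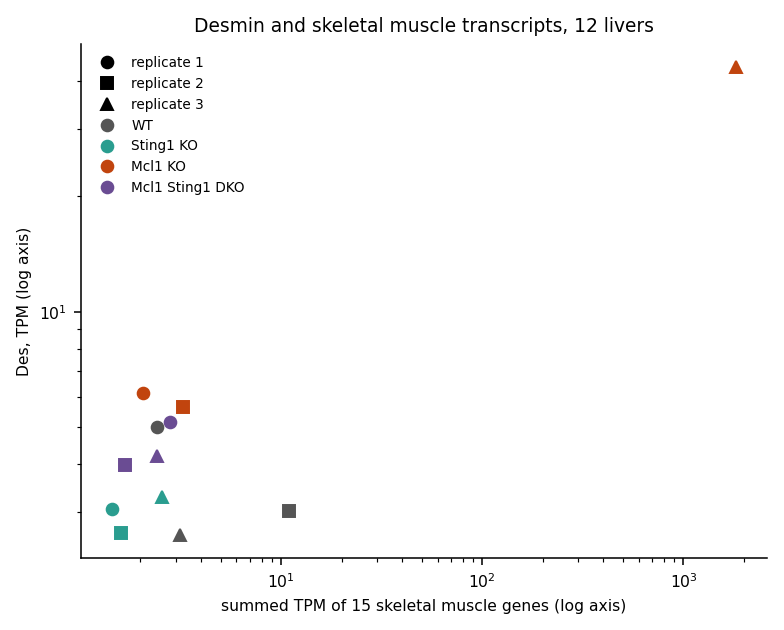
Des level against the summed level of 15 skeletal muscle genes in each liver, both in TPM on log axes; colours are genotypes and symbols replicates. Mcl1 KO replicate 3 stands alone at 1824 TPM of muscle transcripts with the highest Des level, while the other 11 livers hold 1.44 to 10.99 TPM of muscle transcripts.

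Vim, vimentin, the filament protein of mesenchymal cells and leukocytes (ENSMUSG00000026728, chr2:13578738-13587639, plus strand), read 40.8, 24.9 and 24.5 CPM in WT and 56.8, 74.5 and 65.3 CPM in Mcl1 KO livers. The log2 change was 1.12 (SE 0.22, 95% interval 0.63 to 1.61; adjusted p 0.00726, edgeR). The groups were apart, with WT replicate 1 the nearest WT liver. Since leukocytes also hold vimentin, their markers belong beside this value: 11 of 14 tested leukocyte markers rose and none fell, with a median log2 change of 0.95, and their summed level was 398 to 551 TPM in WT and 871 to 1154 TPM in Mcl1 KO livers. Their part in the Vim change was not tested.

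Rgs5, a regulator of G protein signalling that marks pericytes (ENSMUSG00000026678, chr1:169483036-169524887, plus strand), read 49.3, 42.7 and 48.4 CPM in WT and 107, 97.5 and 104 CPM in Mcl1 KO livers. Both groups were tight, with a highest to lowest ratio of 1.15 in WT and 1.09 in Mcl1 KO livers, and no values lay between them. The log2 change was 1.13 (SE 0.15, 95% interval 0.81 to 1.46; adjusted p 0.00133, edgeR). Rgs5 was called in all 23 alternative fits, with log2 changes of 1.07 to 1.33 and adjusted p of 9.09e-11 to 0.0211.

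Both receptors of platelet-derived growth factor were higher on average in Mcl1 KO livers without reaching the threshold. Pdgfra, the alpha receptor (ENSMUSG00000029231, chr5:75311994-75358876, plus strand), read 19.0, 9.43 and 8.45 CPM in WT and 17.5, 26.9 and 15.7 CPM in Mcl1 KO livers, a log2 difference of 0.70 (SE 0.29; adjusted p 0.103, edgeR). Pdgfrb, the beta receptor (ENSMUSG00000024620, chr18:61178212-61218133, plus strand), read 23.1, 14.1 and 15.6 CPM in WT and 31.8, 33.0 and 22.5 CPM in Mcl1 KO livers, a log2 difference of 0.72 (SE 0.25; adjusted p 0.0607, edgeR). For both genes the overlap came from WT replicate 1, which lay above at least 1 Mcl1 KO liver. Without that liver both were called by edgeR, Pdgfra at 1.15 (adjusted p 0.0106, range over alternatives 0.0106 to 0.474) and Pdgfrb at 0.96 (adjusted p 0.0307, range 0.0219 to 0.201). It was the WT liver without Y-linked counts, so without it genotype and Y-linked expression cannot be told apart. With Y-linked expression as covariate and all 12 livers, Pdgfra read 0.48 (adjusted p 0.318, edgeR) and Pdgfrb 0.66 (adjusted p 0.168). DESeq2 called Pdgfrb at 0.74 (adjusted p 0.0266) with all 12 livers.

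The secreted growth factor and the vitamin A enzyme differed little. Hgf, hepatocyte growth factor, which stellate cells supply to hepatocytes (ENSMUSG00000028864, chr5:16758041-16828178, plus strand), read 33.4, 21.8 and 23.8 CPM in WT and 37.7, 32.2 and 30.2 CPM in Mcl1 KO livers, a log2 difference of 0.34 (SE 0.17, 95% interval -0.03 to 0.71; adjusted p 0.169, edgeR). Without WT replicate 1 the Hgf value was 0.54 and was called (adjusted p 0.0391, edgeR, range over alternatives 0.0391 to 0.767). With Y-linked expression as covariate and that liver kept, Hgf read 0.07 (adjusted p 0.767, edgeR). Lrat, lecithin retinol acyltransferase, which makes the stored retinyl esters (ENSMUSG00000028003, chr3:82799886-82811288, minus strand), read 41.1, 28.8 and 31.3 CPM in WT and 28.0, 49.5 and 41.2 CPM in Mcl1 KO livers. Its groups overlapped fully, at a log2 difference of 0.23 (SE 0.22, 95% interval -0.24 to 0.70; adjusted p 0.466, edgeR).

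Reln, reelin, is a large secreted glycoprotein that quiescent and activated stellate cells both make (ENSMUSG00000042453, chr5:22089452-22549700, minus strand). It had the most CPM of the members. Divided by the 23738 bases of all its annotated exons, its TPM was not the highest. Reln read 185, 112 and 130 CPM in WT and 195, 135 and 101 CPM in Mcl1 KO livers. The log2 difference was 0.02 (SE 0.24, 95% interval -0.51 to 0.55, edgeR adjusted p 0.968), so changes in either direction within that interval remain compatible with these livers.

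**Figure D3:**
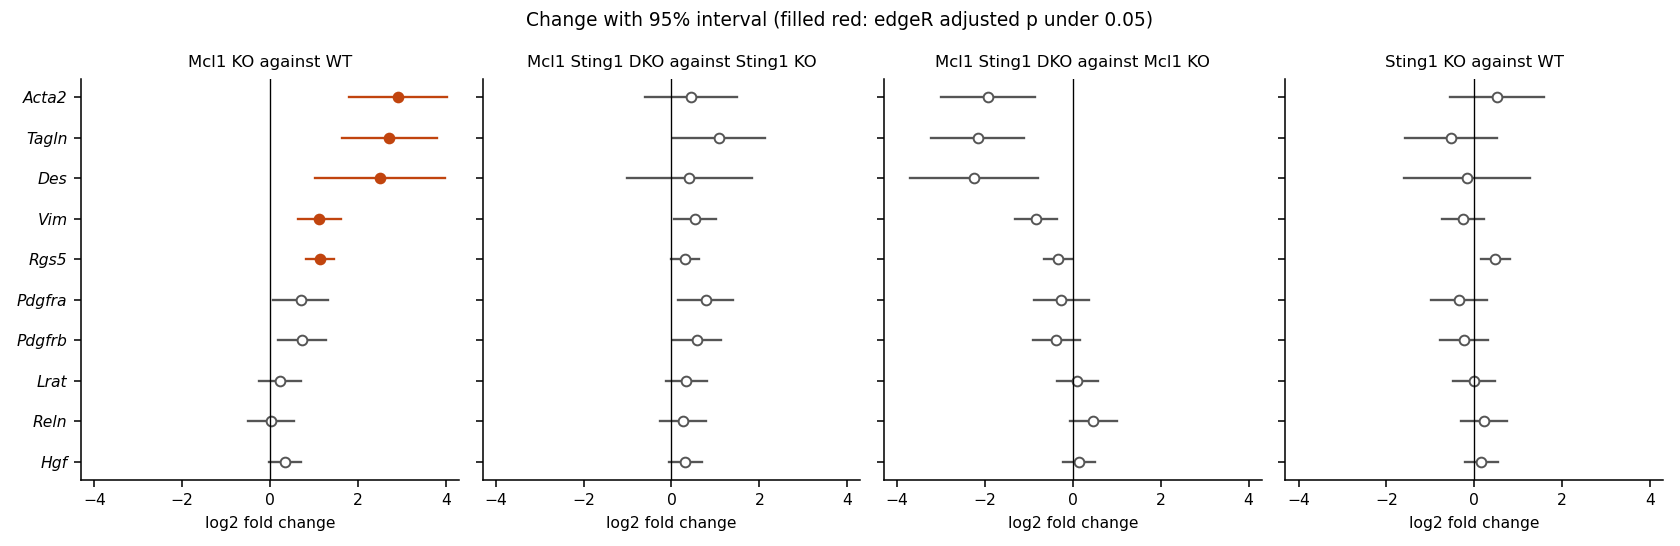
Log2 fold change of each member with its 95% interval in 4 comparisons, from the edgeR fit of all 12 livers; filled red points have an adjusted p under 0.05. Filled points stand only in the panel of Mcl1 KO against WT, for Acta2, Tagln, Des, Vim and Rgs5.

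The members were then set beside longer lists of markers of the same cells. Of 24 myofibroblast markers, 23 were tested, 18 rose and 0 fell, with a median log2 change of 1.38. Besides Acta2 and Tagln, 16 of 21 rose. The genes with the largest change were Timp1, an inhibitor of matrix proteases, at 0.297 ± 0.269 CPM in WT and 4.01 ± 3.87 CPM in Mcl1 KO livers (log2 change 3.50, adjusted p 0.00966, edgeR), Acta2, Tagln, and Col1a1, a chain of type I collagen, at 14.9 ± 8.03 and 59.3 ± 14.5 CPM (1.99, adjusted p 0.0101). Of 28 markers of quiescent stellate cells, all tested, 6 rose and 1 fell, with a median of 0.16. Among those that moved were Des, Hhip, an inhibitor of hedgehog signalling, which fell (5.22 ± 0.162 to 2.19 ± 0.891 CPM, log2 change -1.23, edgeR adjusted p 0.0139), and Cygb, cytoglobin (10.1 ± 2.55 to 22.1 ± 2.38 CPM, 1.13, adjusted p 0.00435). Without Mcl1 KO replicate 3 the counts were 15 higher for myofibroblast markers and 4 higher and 1 lower for quiescent markers.

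Acta2 and Tagln are also classical targets of serum response factor and its myocardin-family partners. Of 18 genes of this program 17 were tested and 11 rose, 9 of 15 besides members, with none lower and a median log2 change of 1.76. They were led by Tpm2, a tropomyosin (log2 change 3.44, adjusted p 0.0397), Cnn1, calponin (2.97, adjusted p 0.0171), Acta2 and Actg2, an actin of smooth muscle (2.72, adjusted p 0.0287). Tpm2 read 4.08, 6.73 and 117.6 CPM in the Mcl1 KO livers, and replicate 3, the liver with skeletal muscle transcripts, was also the highest for Cnn1, at 0.765, 0.520 and 2.44 CPM, and for Actg2, at 0.910, 0.765 and 3.79 CPM. Of 16 markers of smooth muscle and pericytes, none of them a member, 15 were tested, 8 rose and 1 fell, and besides Tpm2, Cnn1 and Actg2 the most changed was Synpo2, an actin-bundling protein (2.55, adjusted p 0.0192), at 1.55, 1.13 and 7.40 CPM. With Mcl1 KO replicate 3 left out, 7 genes of the program and 5 markers of smooth muscle and pericytes were higher, and none of these 4 was called: Tpm2 read 0.47 (adjusted p 0.564), Cnn1 2.10 (adjusted p 0.0512), Actg2 1.66 (adjusted p 0.11) and Synpo2 1.27 (adjusted p 0.0623). The summed level of the smooth muscle and pericyte markers overlapped between groups, at 71.9 to 100.5 TPM in WT and 80.6 to 185 TPM in Mcl1 KO livers, replicate 3 being the highest.

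The factor binds the CArG box, 10 bases made of CC, 6 bases that are each A or T, and GG, and the TEA-domain partners of the growth regulator YAP bind GGAATG. The 250 bases before the start of transcription were taken from RefSeq for the build GRCm38.p6 and searched on both strands for either motif, in 8 of the 10 members. Tagln was not matched, and the window of Pdgfrb was not read. They are shown for 4 members that rose and for Lrat, the other member with a match, since they let the sequence before genes that moved be read beside one that did not; capitals mark each match, a CArG box being matched with at most 1 mismatch.

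Acta2: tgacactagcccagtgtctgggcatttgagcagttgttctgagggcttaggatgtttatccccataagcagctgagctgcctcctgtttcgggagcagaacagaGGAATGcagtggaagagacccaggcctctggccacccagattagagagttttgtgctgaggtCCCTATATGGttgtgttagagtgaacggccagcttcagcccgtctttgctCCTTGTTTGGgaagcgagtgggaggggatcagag

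Des: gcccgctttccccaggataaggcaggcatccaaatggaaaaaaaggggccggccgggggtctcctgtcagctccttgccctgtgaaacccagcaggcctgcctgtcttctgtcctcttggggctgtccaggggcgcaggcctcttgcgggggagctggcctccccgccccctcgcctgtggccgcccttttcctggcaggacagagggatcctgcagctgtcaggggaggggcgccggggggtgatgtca

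Rgs5: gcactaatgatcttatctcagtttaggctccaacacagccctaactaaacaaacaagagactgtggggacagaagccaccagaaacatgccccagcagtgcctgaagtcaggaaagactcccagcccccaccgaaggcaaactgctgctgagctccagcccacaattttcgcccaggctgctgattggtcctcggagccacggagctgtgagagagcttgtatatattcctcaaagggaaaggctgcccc

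Vim: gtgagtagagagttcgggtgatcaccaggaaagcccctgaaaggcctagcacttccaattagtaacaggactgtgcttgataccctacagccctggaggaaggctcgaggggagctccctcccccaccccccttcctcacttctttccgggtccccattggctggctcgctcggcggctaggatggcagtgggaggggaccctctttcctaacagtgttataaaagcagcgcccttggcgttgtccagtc

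Lrat: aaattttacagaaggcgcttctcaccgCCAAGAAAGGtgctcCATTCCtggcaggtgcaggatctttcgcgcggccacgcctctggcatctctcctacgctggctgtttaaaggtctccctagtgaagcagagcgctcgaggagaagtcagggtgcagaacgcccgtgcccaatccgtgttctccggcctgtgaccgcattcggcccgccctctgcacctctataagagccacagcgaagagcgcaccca

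The Acta2 window lies at chr19:34255374-34255623 on the minus strand and holds 2 matches to the CArG box with 1 mismatch, CCCTATATGG from 84 to 75 and CCTTGTTTGG from 34 to 25 bases before the start, and GGAATG from 146 to 141. The Lrat window, at chr3:82903975-82904224 on the minus strand, holds 1 such match and 1 GGAATG on the other strand, though Lrat did not pass the test. The windows of Des (chr1:75360042-75360291), Rgs5 (chr1:169655251-169655500) and Vim (chr2:13574061-13574310), all on the plus strand, hold neither motif, nor do those of Pdgfra, Reln and Hgf. Among all 32841 RefSeq windows of this length, 1.47% held an exact CArG box, 8.59% held one with at most 1 mismatch and 12.6% held GGAATG. These matches are letters in a window and say nothing of binding.

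The other members were read with the genes of their pathways. Of 13 genes of platelet-derived growth factor signalling, receptors included, all tested, 2 rose and 3 fell. Pdgfb, a ligand, went from 1.56 ± 0.0752 to 2.90 ± 0.391 CPM (log2 change 0.87, adjusted p 0.0138, edgeR), Plat, tissue plasminogen activator, which can activate a ligand of this family, changed by 1.78 (adjusted p 0.00644), and Pik3r1 (-0.96, adjusted p 0.0276) and Plcg1 (-0.93, adjusted p 0.0191), which act downstream of the receptors and in many other cells, were lower. Of 11 genes of HGF signalling 1 rose and 3 fell: Plau, urokinase, rose by 1.53 (adjusted p 0.00285), and the receptor Met went from 155 ± 11.8 to 72.8 ± 22.4 CPM (-1.09, adjusted p 0.00897), its docking protein Gab1 changed by -0.79 (adjusted p 0.0266) and F12, a protease of plasma, by -0.45 (adjusted p 0.0323). Hgf itself did not pass.

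Of 26 genes of transforming growth factor beta signalling 5 rose and none fell by edgeR, among them Thbs1, thrombospondin (log2 change 2.18, adjusted p 0.00283), Ltbp2, a matrix protein of the latent complex family (1.51, adjusted p 0.00801) and Acvrl1, a receptor mainly of endothelial cells (1.07, adjusted p 0.00418). Of 19 retinoid and lipid storage genes, Lrat among them, 18 were tested, 3 rose and 3 fell. Among them Lpl, lipoprotein lipase (2.55, adjusted p 0.00645), and Plin2, a coat protein of lipid droplets (1.11, adjusted p 0.0311), rose, and Aldh1a1, a retinal dehydrogenase that hepatocytes also express, was lower (-1.05, adjusted p 0.0496). Of the 11 genes of reelin signalling 9 were tested and 0 were called by edgeR, while DESeq2 called 1; those with the highest mean level were Crk, Pafah1b1, Crkl and Reln, with log2 differences of 0.11, -0.39, -0.31 and 0.02.

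Rgs5 has close relatives in the R4 family, of which 7 of 10 were tested and 4 rose by edgeR, with none lower: Rgs1 (log2 change 2.59, adjusted p 0.00694), Rgs4 (1.41, adjusted p 0.0464), Rgs2 (1.16, adjusted p 0.0138) and Rgs5. Rgs5 at 46.8 ± 3.57 CPM in WT livers was far above these 3, whose means were 0.585, 1.78 and 5.44 CPM. Among 10 actins and type III intermediate filaments, 8 were tested, 5 rose and none fell: besides Acta2, Des and Vim these were Actg2 and Actg1, a cytoplasmic actin, at 37.3 ± 7.88 and 82.7 ± 15.5 CPM (1.15, adjusted p 0.00894). The count was 3 without Mcl1 KO replicate 3, namely Acta2, Vim and Actg1. Gfap, a filament of quiescent rodent stellate cells, read 0.319 ± 0.204 CPM in WT and 0.704 ± 0.128 CPM in Mcl1 KO livers (log2 difference 0.995, adjusted p 0.111). Actins are near copies of each other, and how reads that match several were counted is not given in the sources used here, so part of the Acta2 and Actg2 counts may be shared. The Acta2 gene overlaps Stambpl1 and the Tagln gene overlaps Pcsk7, both on the opposite strand, and use of strand is not given either: Stambpl1 read 0.386 to 2.51 CPM in WT and 2.59 to 4.68 CPM in Mcl1 KO livers, and Pcsk7 read 29.0 to 34.5 and 25.1 to 26.8 CPM. Reads of each pair cannot be told apart where they overlap.

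Markers of other liver cells show the setting of these changes. Of 15 portal fibroblast and mesothelial markers 13 were tested, 4 rose and none fell by edgeR, with a median log2 change of 0.71, the most changed being Dpt (1.84, adjusted p 0.0384), Eln (1.61, adjusted p 0.0166) and Cd34 (1.59, adjusted p 0.00931). Without Mcl1 KO replicate 3, 2 of these markers were higher, Eln and Cd34, and 3 were lower, the mesothelial genes Msln, Upk3b and Upk1b (-2.26, -2.60 and -2.40), which are named after their values were seen. Their summed level overlapped, at 26.0 to 61.5 TPM in WT and 42.8 to 75.1 TPM in Mcl1 KO livers. Of 14 endothelial markers 1 rose, Egfl7 (0.60, adjusted p 0.0402, and 0.52, adjusted p 0.105, without Mcl1 KO replicate 3), and of 9 tested cholangiocyte markers 1 rose, Tspan8 (1.82, adjusted p 0.00285). None of 10 hepatocyte markers was called by edgeR, while DESeq2 called 2 higher and 2 lower. The summed level of the quiescent stellate markers was 698 to 926 TPM in WT and 816 to 991 TPM in Mcl1 KO livers and overlapped, whereas that of the myofibroblast markers was 212 to 387 TPM and 592 to 701 TPM and did not. Such a sum leans on its most abundant genes: Steap4, a quiescent marker, averaged 191 TPM over all livers. Of the 28 quiescent markers read singly, 6 rose and 1 fell.

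**Figure D4:**
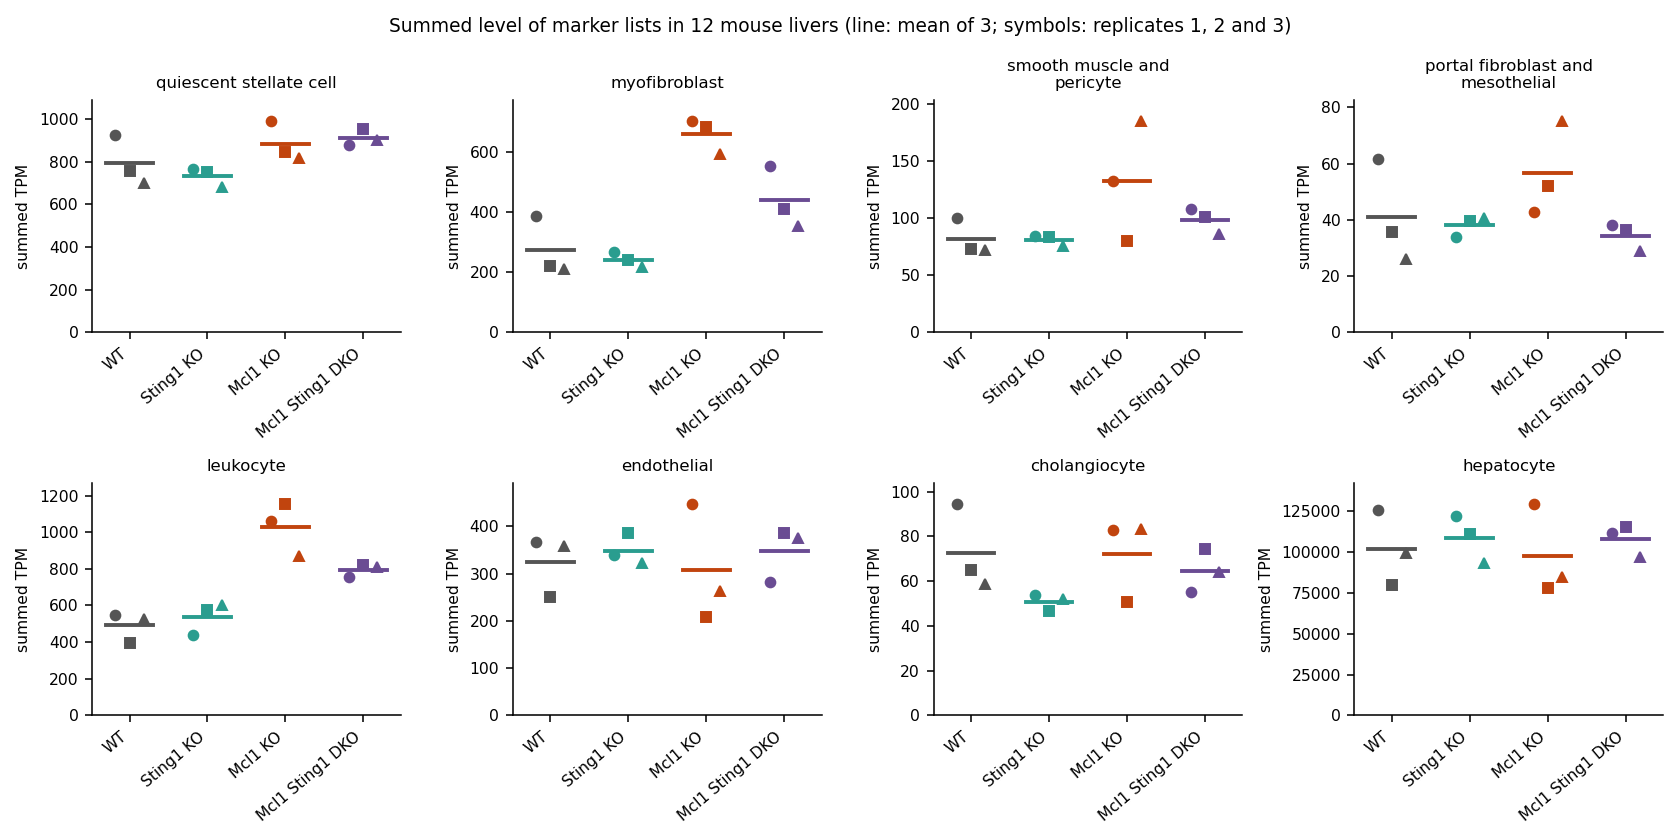
Summed level of 8 lists of marker genes in each liver, in TPM on linear axes that start at 0; symbols are replicates and the line is the mean of 3 livers. Myofibroblast and leukocyte markers have all 3 Mcl1 KO livers above all 3 WT livers, whereas quiescent stellate, endothelial, cholangiocyte and hepatocyte markers overlap.

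Among themselves the members fell into looser and closer pairs. Over the 12 livers, log2 CPM of Tagln and Vim correlated at r = 0.96, Pdgfra and Pdgfrb at 0.91, Acta2 and Vim at 0.90 and Acta2 and Tagln at 0.90, all with genotype differences and library composition in common. With the genotype means taken out these 4 values were 0.81, 0.80, 0.70 and 0.66. Reln stood apart, at r of -0.49 with Des, -0.33 with Acta2 and -0.24 with Tagln, and was closest to Hgf at 0.73, or 0.81 within genotypes. Over 12559 genes of at least 1 CPM, those most like Acta2 were Cd34 (r = 0.97), Mmrn1 (0.95) and Pdlim7 (0.95), those most like Tagln were Cd63 (0.98), Anxa1 (0.98) and Serpinh1 (0.98), a collagen chaperone, and those most like Vim were Plat (0.98), Cygb (0.98) and Fstl1 (0.98). Pdgfrb was most like Col6a3 (0.96), a collagen chain, Tnip1 (0.96) and Bgn (0.95), a matrix proteoglycan, and Pdgfra most like Robo2 (0.97), Pam (0.96) and Rnf150 (0.95). Rgs5 was most like Cln6 (0.96), H2bc11 (0.96) and Necap2 (0.95), but at 0.72, 0.62 and 0.60 with the genotype means taken out. For Tagln those values were 0.93, 0.92 and 0.94. Hgf was most like Evc2 (0.92), Tmem47 (0.92) and Ccnd1 (0.90), and Reln most like Taf1 (0.94), Ptpn9 (0.94) and Itga1 (0.92). Lrat, with the lowest values, had Ccng1 (0.83) and Cibar1 (0.82) among its most like genes.

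The second comparison addresses what loss of Sting1 goes along with in livers that lack Mcl1 in hepatocytes. In Mcl1 Sting1 DKO against Mcl1 KO livers, 5 members had all 3 DKO livers below all 3 Mcl1 KO livers, namely Acta2, Tagln, Des, Vim and Rgs5; over all genes tested 9.28% did. None of the 10 passed edgeR's adjusted threshold, nor did any of the 15070 genes tested. At an unadjusted p under 0.05 the count was 5 members, the same 5, against 20.6% of all genes. DESeq2 called 4, Acta2, Tagln, Des and Vim, as lower, against 2.22% of all genes. This comparison shares the Mcl1 KO livers with the first.

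Acta2 read 8.52, 2.63 and 2.98 CPM in the DKO livers, so that replicates 2 and 3 lay within the range of WT livers and replicate 1 just below the lowest Mcl1 KO liver at 10.6 CPM. The log2 difference was -1.93 (SE 0.49, 95% interval -3.00 to -0.86; adjusted p 0.133 by edgeR and 0.00489 by DESeq2). Tagln read 14.4, 8.70 and 7.20 CPM, a log2 difference of -2.17 (SE 0.49, 95% interval -3.23 to -1.11; adjusted p 0.131 by edgeR and 0.000652 by DESeq2). Vim read 45.1, 30.6 and 34.1 CPM, at -0.84 (SE 0.22; adjusted p 0.133 and 0.0193), and Des 6.95, 5.12 and 5.99 CPM, at -2.26 (SE 0.67; adjusted p 0.141 and 0.0494). Without Mcl1 KO replicate 3, the liver with muscle transcripts, the Des difference was -0.50 (adjusted p 0.331), that of Acta2 was -1.54 (adjusted p 0.192), and those of Tagln and Vim were -2.26 and -0.84.

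DKO replicate 1 was the highest DKO liver for Acta2, Tagln, Des, Vim, Rgs5, Pdgfra and Pdgfrb, and it was the only DKO liver with Y-linked counts. One Mcl1 KO liver decided the edgeR call: without replicate 1 of Mcl1 KO, the lowest of its group for Acta2, Tagln, Des and Vim, edgeR called 5 members and 20.2% of all genes, where it called none with this liver in: Acta2 at -2.20 (adjusted p 0.0141), Tagln at -2.54 (0.00422), Des at -2.71 (0.0112), Vim at -0.93 (0.0232) and Reln, higher, at 0.76 (0.039). Over all alternatives the adjusted p of Acta2 in this comparison ran from 0.00489 to 0.378.

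Rgs5 read 91.9, 81.5 and 69.9 CPM in the DKO livers, just below the Mcl1 KO livers and above all WT livers. The log2 difference was -0.34 (SE 0.15, 95% interval -0.66 to -0.02; adjusted p 0.219, edgeR). The other 5 members overlapped between DKO and Mcl1 KO livers: Pdgfra at 18.5, 16.9 and 14.4 CPM (log2 difference -0.27), Pdgfrb at 27.3, 23.5 and 16.5 CPM (-0.37), Lrat at 44.7, 47.9 and 34.9 CPM (0.10), Hgf at 31.3, 38.01 and 40.8 CPM (0.14) and Reln at 181, 222 and 194 CPM (0.47). Reln in DKO livers was the highest mean of any group, 199 ± 21.2 CPM. Of the other groups, the Mcl1 KO liver at 195 CPM and WT replicate 1 at 185 CPM lay within its range.

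Of the lists around these genes none had a gene called by edgeR in this comparison. Among 23 myofibroblast markers 10 had an unadjusted p under 0.05, all lower, and DESeq2 called 8, all lower, with a median log2 difference of -0.79. Of 17 genes of the serum response factor program 9 had an unadjusted p under 0.05, 8 of them lower, and DESeq2 called 5, all lower. Of 28 quiescent stellate markers 9 did, 5 higher and 4 lower, and DESeq2 called 2 higher and 1 lower, with a median of 0.11. The myofibroblast markers summed to 354 to 552 TPM in DKO livers, below the Mcl1 KO range of 592 to 701 TPM, and the leukocyte markers to 754 to 822 TPM, below 871 to 1154 TPM. The part of leukocytes or other cells in the values of the members was not tested.

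Mcl1 deletion can also be read among the livers labelled as lacking Sting1, in a comparison that shares no liver with the first. In Mcl1 Sting1 DKO against Sting1 KO livers all 10 log2 differences were above 0, with a median of 0.43. No member was called by edgeR, which called 0.803% of all genes tested, nor by DESeq2, which called 2.57% as higher. At an unadjusted p under 0.05 there were 4 members, Pdgfra, Vim, Pdgfrb and Tagln, against 11.3% of all genes, and 5 members, Pdgfra, Tagln, Vim, Des and Reln, had all DKO livers above all Sting1 KO livers, against 11.5%.

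Pdgfra had the lowest p of the members there, at 10.2, 10.5 and 8.35 CPM in Sting1 KO livers and a log2 difference of 0.78 (SE 0.29, 95% interval 0.15 to 1.41; adjusted p 0.311, edgeR). Tagln read 5.82, 3.50 and 4.92 CPM in Sting1 KO livers, a log2 difference of 1.08 (SE 0.48; adjusted p 0.427). Acta2 read 3.96, 2.10 and 4.20 CPM and overlapped the DKO livers, at 0.45 (SE 0.48, 95% interval -0.61 to 1.502; adjusted p 0.823). Without DKO replicate 1 the sign of the Acta2 difference turned, to -0.28. Vim read 29.7, 22.1 and 23.7 CPM (0.54, adjusted p 0.368), Des 4.63, 3.95 and 4.97 CPM (0.41, adjusted p 0.887) and Pdgfrb 16.2, 17.2 and 11.2 CPM (0.59, adjusted p 0.398). Col1a1, of the myofibroblast markers, read 10.8 ± 3.11 CPM in Sting1 KO and 34.1 ± 18.9 CPM in DKO livers (log2 difference 1.65, adjusted p 0.111); of the 23 markers edgeR called 0 and DESeq2 5, all higher.

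In Sting1 KO against WT livers, without any Mcl1 deletion, 4 members had a log2 difference above 0 and 6 below, with a median of -0.08 and 0 calls by edgeR or DESeq2. Rgs5 was the single member with an unadjusted p under 0.05, which 5.45% of all genes had, and the single one with no overlap, which 7.06% had in the higher direction. It read 54.3, 67.7 and 73.9 CPM in Sting1 KO and 42.7 to 49.3 CPM in WT livers, a log2 difference of 0.48 (SE 0.15, 95% interval 0.16 to 0.80; adjusted p 0.697, edgeR). For Lrat (28.5, 37.1 and 35.1 CPM), Hgf (31.4, 28.6 and 28.5 CPM) and Reln (176, 179 and 142 CPM) the differences from WT were -0.01, 0.16 and 0.22 on the log2 scale.

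Whether the Mcl1 difference itself depended on the Sting1 label was tested as an interaction, the log2 difference of DKO against Sting1 KO less that of Mcl1 KO against WT. It was -2.46 for Acta2 (SE 0.69, 95% interval -3.97 to -0.94; adjusted p 0.256, edgeR), -2.10 for Des (SE 0.93; adjusted p 0.34, and -0.34 without Mcl1 KO replicate 3, adjusted p 0.676), -1.63 for Tagln (SE 0.68; adjusted p 0.322) and -0.82 for Rgs5 (SE 0.21, 95% interval -1.28 to -0.37; adjusted p 0.252). These 4 members had an unadjusted p under 0.05, against 14.4% of all genes, and no gene was called by edgeR. DESeq2 called 2 members, Acta2 and Rgs5, and 1.14% of all genes. Leaving out Mcl1 KO replicate 1, edgeR called the same 2 members and 10.2% of all genes. For Pdgfra (0.08), Pdgfrb (-0.13), Lrat (0.11), Reln (0.25) and Hgf (-0.03) the interaction was smaller in size than its SE of 0.24 to 0.40. The intervals were wide, with 95% limits of -0.50 and 0.999 for Reln. For Vim it was -0.58 (SE 0.31; adjusted p 0.406).

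**Figure D5:**
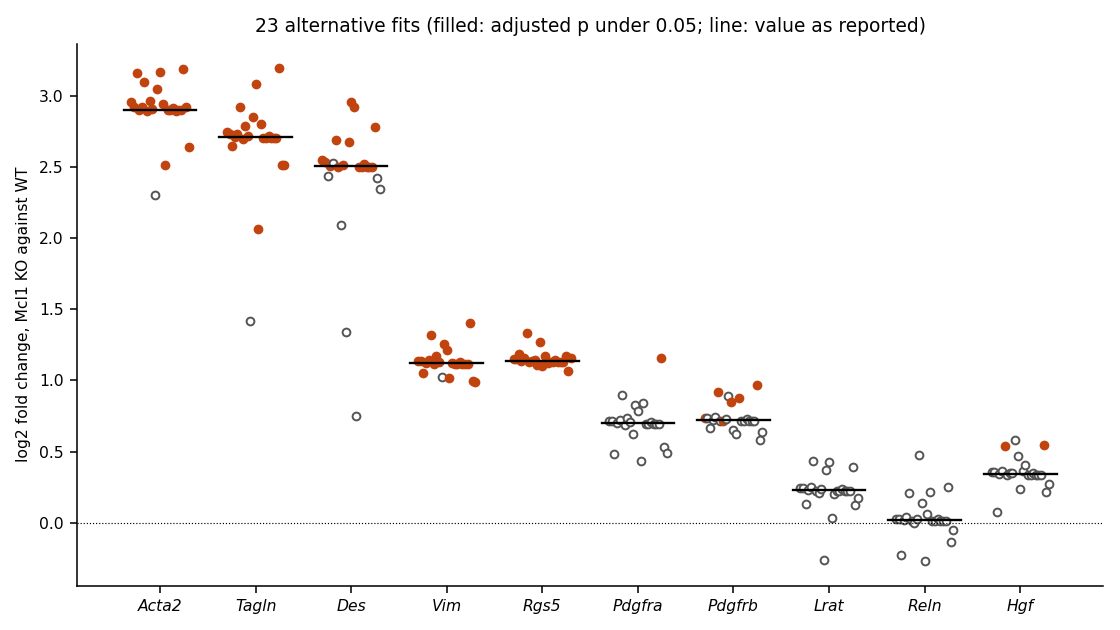
Log2 fold change of Mcl1 KO against WT for each member under 23 alternative fits, points filled where the adjusted p was under 0.05 and a line at the value reported above. Rgs5 is filled throughout at 1.07 to 1.33, Acta2, Tagln and Vim in 22 of 23 fits, Des in 16 of 23, and Lrat and Reln in none.

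The alternative that moved these calls most held the share of counts on structured RNA genes constant. Mcl1 KO livers had the widest range of that share, and with it as a covariate Rgs5 was the 1 member called, at 1.11 (adjusted p 0.0211), while Acta2 read 2.30 (adjusted p 0.114), Tagln 1.41 (adjusted p 0.228), Vim 1.02 (adjusted p 0.126) and Des 1.34 (adjusted p 0.551). In WT livers that share was at most 0.369%, and in the 3 Mcl1 KO livers it was 0.283%, 2.37% and 1.36%. Tagln at 18.6, 78.5 and 39.8 CPM and Vim at 56.8, 74.5 and 65.3 CPM had that order. Acta2 at 10.6, 16.9 and 26.5 CPM and Des at 7.61, 9.45 and 69.9 CPM did not, being highest in replicate 3. Nor did Rgs5, at 107, 97.5 and 104 CPM. Mcl1 KO replicates 2 and 3 lay above all WT livers in that share. The covariate fit therefore cannot cleanly separate its part in these values from that of the genotype.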

How the data were processed

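The authors deposited whole-number counts of reads per Ensembl gene for each of 12 mouse livers, with no normalization. The submitters' processing notes name STAR, featureCounts and GRCm39 without versions; strand, annotation release and the handling of reads with several matches are not given in the sources used here, and the labels and the study's methods name different RNA extraction kits. Genotypes came from the labels, which do not say whether the 3 libraries of a genotype are 3 animals, so p-values measure the spread between these libraries. For its plots of macrophage genes in WT, Mcl1 KO and DKO livers, the study's supplement calls the n biological replicates. The members and lists were chosen with earlier results of these data known. The text names all 10 members, up to 4 genes of each list by size of called change (or by mean TPM where none was called), and the 3 tested genes nearest to a member.

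Counts of all 12 livers were fitted with edgeR 4.0.16 under R 4.3.3, by its quasi-likelihood test with TMM factors and a prior count of 2. Low genes were dropped by filterByExpr, and p-values were adjusted (Benjamini-Hochberg) over the 15070 genes tested, at a threshold of 0.05. SEs were log2 change over the root of F. DESeq2 1.42.0, other scalings and filters, covariates, and leaving out each liver were alternatives. TPM used summed exon lengths of GENCODE genes on GRCm39 for 39533 of 40551 identifiers. Likeness of genes was Pearson's r of log2 CPM with a pseudocount of 1. The test code was checked on simulated data. Totals of 28826367 to 45266387 counts set the depth, and intervals cover the spread between libraries. Single values of some list genes are not reported here.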

Additional observations from a re-analysis of the deposited data

Results flagged for a closer look

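The change that went with Mcl1 deletion differed between WT and Sting1 KO backgrounds, as labelled, for 2 members by DESeq2's test of the difference. For Acta2 the difference of log2 changes was -2.49 (adjusted p 0.0249, DESeq2), with -2.46 and an adjusted p of 0.256 by edgeR, and its adjusted p ran from 0.0249 to 0.778 over the alternatives. For Rgs5 it was -0.829 (adjusted p 0.0282, DESeq2), with -0.82 and an adjusted p of 0.252 by edgeR, and a range of 0.0282 to 0.764. By edgeR both were called only without Mcl1 KO replicate 1, at -2.72 (adjusted p 0.0358) and -0.79 (adjusted p 0.0389), in a fit that called 10.2% of all genes tested. Without Mcl1 KO replicate 3 the values were -2.07 for Acta2 and -0.81 for Rgs5. For Rgs5, DKO livers read -0.34 against Mcl1 KO livers and Sting1 KO livers 0.48 against WT livers. Both differences enter its value. No group holds 4 or more livers, so single livers were not tested as outliers.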

How the results depend on the processing

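Of 1140 member values recomputed under the alternatives, 1073 kept their direction and side of the threshold, 10 were no longer called, 22 became called and 35 changed sign, none of these 35 being a called value. The count of members called in Mcl1 KO against WT, 5 as reported, was 1 with the structured RNA share as covariate and 4 to 8 when 1 liver was left out, 8 without WT replicate 1, where 17.4% of all genes were called. It was 4 with Y-linked expression as covariate, Des being the member lost. In Mcl1 Sting1 DKO against Mcl1 KO it was 0 as reported, 4 by DESeq2 and 0 to 5 when 1 liver was left out, 5 without Mcl1 KO replicate 1 (20.2% of all genes). For the interaction it was 0 as reported, 2 by DESeq2 and 0 to 2 when 1 liver was left out, 2 without Mcl1 KO replicate 1 (10.2% of all genes). The cause was not tested. Over all genes, those called in Mcl1 KO against WT numbered 3050 as reported, 3884 by DESeq2 and 1178 with the 2 groups alone. They numbered 1504 with Y-linked expression and 407 with the structured RNA share as covariate, 3231 by library totals and 3029 with upper-quartile factors. Library totals without TMM shifted the median of all genes by 0.19 on the log2 scale in that comparison, and upper-quartile factors by 0.13.

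Sign changes outside the left-out livers were those of Pdgfra in the interaction (-0.0035 by library totals and -0.0031 by upper-quartile factors), of Reln in Mcl1 KO against WT (-0.23), Reln in Sting1 KO against WT (-0.030), Hgf in Sting1 KO against WT (-0.11) and Hgf in the interaction (0.38) with Y-linked expression as covariate, and of Lrat in Mcl1 KO against WT (-0.26) and Reln in the interaction (-0.30) with the structured RNA share. With 1 liver left out, values that changed sign ranged as follows. In Mcl1 KO against WT, Reln ran from -0.27 to 0.25. In DKO against Mcl1 KO, Lrat ran from -0.089 to 0.30 and Pdgfra from -0.41 to 1.9e-05. In DKO against Sting1 KO, Acta2 ran from -0.28 to 0.74. In Sting1 KO against WT, Des ran from -0.31 to 0.12, Lrat from -0.11 to 0.16, Pdgfra from -0.55 to 0.11, Pdgfrb from -0.38 to 0.0035 and Vim from -0.39 to 0.027. In the interaction, Hgf ran from -0.23 to 0.10, Lrat from -0.084 to 0.30, Pdgfra from -0.38 to 0.35 and Pdgfrb from -0.37 to 0.061.

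Replicate numbers did not pair the livers: deviations of same-numbered livers from their group means correlated at -0.60 to 0.34. With a replicate block, 5 members were called in Mcl1 KO against WT, Pdgfrb (0.72, adjusted p 0.0219) in place of Des (2.09, adjusted p 0.0618), Reln read -0.0015, and 2591 genes were called in all.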
